A study of Mus musculus with 2 samples.

Results

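The 1000 strongest CTCF sites of a mouse embryonic stem cell line are described here: where they lie, which genes are next to them, how they are spaced, and how they stand in each of 2 replicate libraries. CTCF was immunoprecipitated with an antibody to CTCF from E14TG2a.4, a male line of the 129/Ola strain, and the DNA was sequenced. The labels give no treatment and no second condition, so the 2 libraries, biological replicates 1 and 2, are a single group of a single line. The sites were chosen from the authors' conservative set of reproducible peaks on the mm10 build, as the 1000 peaks of highest pooled signal on chromosomes 1 to 19. That set holds 42335 peaks on these chromosomes and 43393 in all. The signal is the deposited value per peak, whose scale is not stated, and no read counts come with it, so the depth behind each value is unknown.

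CTCF is a DNA-binding protein with a row of zinc fingers that recognises a long, GC-rich motif. Sites bound by CTCF can act as insulators between an enhancer and a promoter, and many are anchors of chromatin loops, where the ring-shaped cohesin complex comes to a halt. The central zinc fingers read the core of the motif, and a shorter element upstream of the core is read by fingers nearer the end of the protein.

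For members whose summit fell close before a gene's start, the sequence around the summit could be read from RefSeq promoter windows of the mm10 assembly (GRCm38.p6), each 250 bases before to 50 bases after a start. Of all windows, 20 held the summit of a member, and together they held 19 members. The stretches below are printed on the strand of the gene, 5′ to 3′, with up to 60 bases either side of the summit. They are shown because they differ in a pair of letter patterns. In the first 5 the capitals mark CAGT and, 21 bases on from its first base, GNNGNC (in Pcp4 and Gm32026 drawn from the A before it as the full core AGNNGGC, in Timm22 both on the other strand). In Gm52283 and Mtmr6 they mark AGNNGGC with no such CAGT, and Rrp1 and Hjurp hold neither pattern.
Pcp4, chr16:96467525-96467605, plus strand: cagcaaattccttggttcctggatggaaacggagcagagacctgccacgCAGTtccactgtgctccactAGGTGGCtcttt
Comtd1, chr14:21848995-21849115, minus strand: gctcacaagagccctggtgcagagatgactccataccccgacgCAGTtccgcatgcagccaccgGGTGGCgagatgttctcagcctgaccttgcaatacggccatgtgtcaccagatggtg
Gm32026, chr19:16064001-16064112, plus strand: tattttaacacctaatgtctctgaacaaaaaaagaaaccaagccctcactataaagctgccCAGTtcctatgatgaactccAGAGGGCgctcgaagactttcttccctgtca
Timm22, chr11:76406725-76406845, plus strand: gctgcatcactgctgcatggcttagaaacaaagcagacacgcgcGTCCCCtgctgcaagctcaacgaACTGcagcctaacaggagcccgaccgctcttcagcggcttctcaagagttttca
Rpl26, chr11:68901402-68901522, plus strand: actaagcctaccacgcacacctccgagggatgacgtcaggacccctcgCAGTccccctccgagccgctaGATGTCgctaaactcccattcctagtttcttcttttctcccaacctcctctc
Gm52283, chr17:45626963-45627083, minus strand: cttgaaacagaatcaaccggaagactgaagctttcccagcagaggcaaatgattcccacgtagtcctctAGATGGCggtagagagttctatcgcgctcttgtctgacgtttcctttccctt
Mtmr6, chr14:60264994-60265114, plus strand: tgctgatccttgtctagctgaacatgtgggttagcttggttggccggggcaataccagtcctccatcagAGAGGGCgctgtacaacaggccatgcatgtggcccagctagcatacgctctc
Rrp1, chr10:78413068-78413188, minus strand: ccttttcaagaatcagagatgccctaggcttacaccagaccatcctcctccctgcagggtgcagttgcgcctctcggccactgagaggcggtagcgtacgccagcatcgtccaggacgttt
Hjurp, chr1:88277666-88277786, minus strand: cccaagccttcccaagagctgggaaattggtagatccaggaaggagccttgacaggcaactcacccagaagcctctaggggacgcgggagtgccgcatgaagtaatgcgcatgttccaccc

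Among the 20 windows with a member's summit, 5 held CAGT with GNNGNC at that distance on either strand (25%, exact 95% interval 8.66 to 49.1%), and they belonged to 5 different members. The same pattern was found in 8.05% of the 857 windows that held the summit of another conservative peak, and in 4.35% of all 31396 windows searched. Of those 857, the 169 windows whose strongest summit ranked 1001 to 10000 had it in 10.1% (5.97 to 15.6%), an interval that overlaps that of the members. The core AGNNGGC alone went the other way, at 55.0% of the members' windows (31.5 to 76.9%) against 85.7% of windows with another summit and 59.7% of all. A stricter form, AGGNGGC was in 8 of the 20 windows (40%, 19.1 to 64.0%), against 58.0% and 29.4%. With 20 windows these intervals are wide, and a match of letters is a description rather than a binding site. Both CAGT with GNNGNC and AGNNGGC were chosen after these sequences had been seen. In the mm9 gene models, where the same windows were found by sequence, none of the printed stretches overlapped a coding or untranslated exon. The Pcp4 summit lay there inside the neighbouring gene Igsf5, the Hjurp summit inside Trpm8, and the Comtd1 summit in an exon of A430057M04Rik. No coding or untranslated part of that exon was marked in the printed stretch.

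The 5 members with the paired pattern had pooled ranks of 154, 183, 276, 383 and 992. At Pcp4, a small calmodulin-binding protein of neurons, the signal was 142 in replicate 1 and 154 in replicate 2, and the summit lay 21 bp before the start. At Comtd1, named for a methyltransferase domain, the signals were 156 and 132. At Timm22, a channel subunit of the mitochondrial inner membrane translocase, they were 130 and 131. At Rpl26, a protein of the large ribosomal subunit, the signals were 101 and 119. The predicted RefSeq locus Gm32026 had signals of 154 and 120.

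The pooled signal of the members ran from 223.7 to 559.7, with a median of 250, against a median of 78.35 over all 42335 peaks. These values chose the members and are given as a description. The distribution was steep at the top, with 8 members over 400, 141 over 300, and 499 under 250. All 1000 carried the highest deposited score, 1000, and all stood at the highest −log10 q value of the set, 4.85, which 81.6% of all autosomal conservative peaks share, so neither value orders the members. The last members inside the threshold were next to Polr2a, the large subunit of RNA polymerase II (223.9), Ubxn11 (223.8) and Camta1 (223.7). The first peaks outside it were next to Mras, Sec23a and Pkm, and all 3 had a pooled signal of 223.7.

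The strongest site lay 1206 bp upstream of the start of Dus3l, a tRNA dihydrouridine synthase, at chr17:56763381-56763715. Its pooled signal was 559.7, its signal was 289 in replicate 1 and 273 in replicate 2, and it held the top rank in both replicates. Relative signal, in units of the median signal of all conservative peaks matched in that replicate, was 7.03 ± 0.0934 there (SD, n = 2). The site of rank 2 lay 150 bp inside the start of the predicted gene Gm50595, with signals of 275 and 226. Next was a site inside Ndst1, an enzyme of heparan sulfate synthesis, with signals of 238 and 228. At rank 4 was a site 33087 bp from Nmur2, a receptor for neuromedin U, with 234 and 227. The top 4 in the pooled list were the top 4 in each replicate.

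Sites of rank 5 to 25 had pooled signals from 424.0 down to 361.7. They lay by genes of many kinds: Bcl7a, a subunit of the BAF chromatin remodelling complex, Nans, the sialic acid synthase, Tjp3, a tight junction scaffold, Glrx5, a mitochondrial glutaredoxin, and Epcam, an epithelial adhesion molecule 64167 bp away. Among transcription factors were Zfp184 and Zfp687, both zinc-finger proteins, and Foxc1, a forkhead factor of mesoderm and neural crest. The Foxc1 site stood 13965 bp upstream of the gene with signals of 195 and 173, and its nearest other conservative peak was 103157 bp away. The site inside Nhej1, a factor of DNA end joining, had signals of 177 and 192. Of the 25 strongest members, 18 were among the first 25 of replicate 1's list and 21 among the first 25 of replicate 2's.

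Every member had a summit within 100 bp in both replicates' lists of peaks and background, which hold 296459 and 295960 autosomal entries. Ranks there are not independent of the choice, because the pooled signal of a member was close to the sum of its replicate signals (median ratio 1.00). The median rank was 509.5 in replicate 1 and 507.5 in replicate 2. In replicate 1, 808 members were among the first 1000 and 984 among the first 2000, and the lowest stood at rank 2865. In replicate 2 these counts were 822 and 978, and the lowest stood at 4529. Both lists placed 643 members in their first 1000, 165 were there in replicate 1 only, 179 in replicate 2 only, and 13 in neither. The plot of rank in replicate 1 against rank in replicate 2 shows this spread. Of the 100 strongest members, 77 were in the first 100 of replicate 1's list and 78 in the first 100 of replicate 2's.

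**Figure D1:**
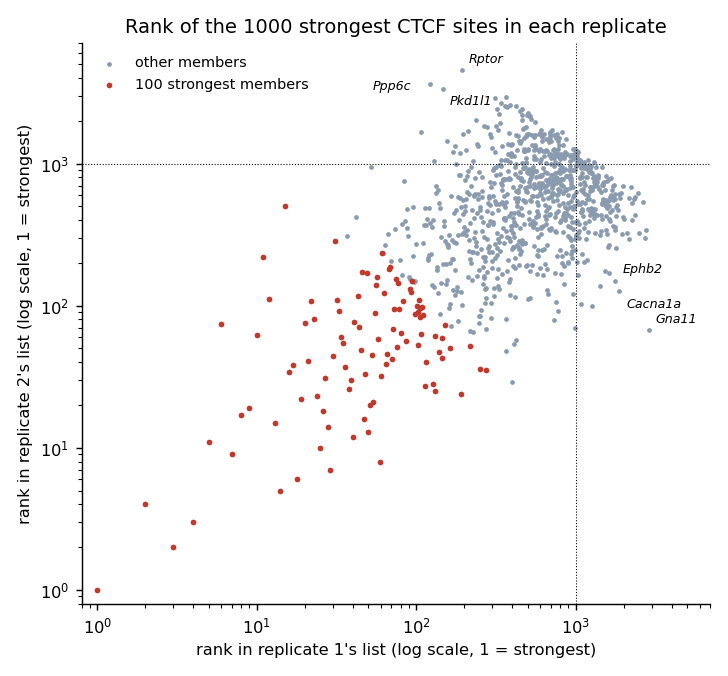
Rank of each of the 1000 strongest sites in replicate 1's list (horizontal, log scale) and replicate 2's list (vertical, log scale). Each point is 1 site, red points are the 100 strongest by pooled signal, dotted lines mark rank 1000, and the 6 named sites differ most in relative signal between replicates; 643 sites lie below both dotted lines.

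A reading that ranks the conservative peaks by 1 replicate alone was also made. The 1000 conservative peaks of highest signal in replicate 1 had a median rank of 645.5 in replicate 2, where 643 were in the first 1000 (64.3%, 61.2 to 67.3%), 825 in the first 2000 and 975 in the first 5000. Chosen on replicate 2, the median rank in replicate 1 was 653, with 643, 854 and 981 in those ranges. The lowest stood at rank 9916 in replicate 2 and 9568 in replicate 1. In relative signal, peaks chosen on replicate 1 had a median of 3.11 there and 3.12 in replicate 2, and 978 were over 2 in replicate 2. Peaks chosen on replicate 2 had 3.26 there and 2.98 in replicate 1, and 985 were over 2. The conservative set itself was made by the authors from both replicates, so the other replicate still entered the choice. These peaks were reproducible by construction, and how far that also sets the likeness of their order was not tested.

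Few members differed by more than 1.5-fold in relative signal between the replicates. It was higher in replicate 1 at 3 members and in replicate 2 at 6, or 0.90% in all. Over all 40401 conservative peaks matched in both, 8.18% were higher in replicate 1 and 9.06% higher in replicate 2 by that measure. The SD of the log2 ratio was 0.21 over the members and 0.44 over all matched peaks, and it rose step by step with falling signal, to 0.53 in peaks ranked past 30000. Summits moved little too: those of the 2 replicates were a median of 9 bp apart at members against 17 bp over all peaks. At 572 members the shift was at most 10 bp, and the largest was 47 bp. The ranks just below were much alike. At ranks 1001 to 2000 and 2001 to 5000 the median shift was 10 bp, and 1.5% and 3.5% differed by more than 1.5-fold. Peak width comes from the same pooled call as the signal and is a description only, with a median of 250 bp and a range of 212 to 455 bp.

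Largest of the replicate differences was that at Gna11, which encodes a G protein alpha subunit, at chr10:81526851-81527096. The signal there was 95.9 in replicate 1 and 162 in replicate 2, ranks 2865 and 67, and a second member 9974 bp away had rank 36 in the pooled list. In the same direction were sites inside Cacna1a, a neuronal calcium channel (104 and 153), and Ephb2, an ephrin receptor (105 and 150). Higher in replicate 1 were a site nearest to Ppp6c, a phosphatase catalytic subunit, with 156 and 85.4, a site inside Rptor, the raptor subunit of mTORC1, with 148 and 80.8, and a site inside Pkd1l1 with 153 and 87.1. The Ppp6c site ranked 123 in replicate 1 and 3605 in replicate 2, and the Rptor site 193 and 4529. With 2 libraries of a single group none of these differences can be tested. All 6 remained above the set's median signal in both, as did every member. The lowest relative signal of any member was 2.31 in replicate 1 and 2.10 in replicate 2.

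Members, like the conservative peaks as a whole, were seldom at promoters. Starts of coding genes were taken from the RefSeq windows, which cover 16457 of the 20665 autosomal coding genes and none on chromosome 18, so placement relative to starts rests on 963 members. Of these, 36 (3.74%, 2.63 to 5.14%) had a summit within 1000 bp of a start, against 4.22% of all conservative peaks. Upstream summits made up 30 of the 36, and downstream summits 6. Over all peaks the corresponding counts were 1246 upstream and 488 downstream, and at ranks 1001 to 2000 they were 25 and 6. A further 48.7% of members were inside a coding gene away from a start, 7.58% inside a noncoding gene only, and 39.98% between genes. For all peaks these shares were 47.5%, 8.45% and 39.8%.

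At a larger distance, members and the ranks just below them were closer to coding gene starts than the set as a whole. The median distance to a start was 21200 bp at members and 30640 bp over all peaks, and it grew through the ranks, from 22880 bp at ranks 1001 to 2000 to 34140 bp at ranks 20001 to 30000 and 31310 bp beyond. Within 10 kb of a start lay 29.3% of members (26.4 to 32.3%) against 24.2% of all peaks (23.7 to 24.6%). Farther than 100 kb from any lay 12.6% of members (10.5 to 14.8%) against 23.1% (22.7 to 23.5%). A median of 4 coding genes lay within 100 kb of a member, against 3 for all peaks. Ranks 1001 to 2000 also had a median of 4, with 27.4% (24.6 to 30.3%) within 10 kb of a start and 16.6% farther than 100 kb. No test between members and other peaks was run here or below, since regions are not replicates of a condition, and the intervals cover counting error alone.

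Some promoters held strong sites. After Gm50595, the strongest members within 1000 bp of a start were at Spata20, with signals of 165 and 157 and the summit 964 bp upstream, at Wdr37, a WD-repeat protein, with 154 and 153 and the summit 257 bp upstream, and at the Pcp4 and Comtd1 starts whose sequences are printed above. Rrp1, a ribosome biogenesis factor, followed with 152 and 136, its summit 85 bp upstream. Near the threshold, promoter members differed in how alike their ranks were. Mtmr6, a myotubularin-related lipid phosphatase, stood at 2372 in replicate 1 and 584 in replicate 2, and Rpl26 at 2209 and 686. Faap20, a member of the Fanconi anaemia core complex, stood at 1127 and 1016.

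Between coding genes, the orientation of the flanking pair could be read at 327 members. The pair was divergent at 33.0% of them (27.9 to 38.4%), convergent at 17.4% (13.5 to 22.0%) and in tandem at 49.5% (44.0 to 55.1%). All conservative peaks between coding genes gave 29.7%, 17.96% and 52.4%, each within the members' interval.

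The neighbours of the members were spread over many genes. A coding gene was nearest to at least 1 member in 922 cases, 4.46% of the 20665 autosomal coding genes, while 13265 (64.2%) were nearest to at least 1 conservative peak. Of the 922 genes, 855 had 1 member, 63 had 2 and 4 had more. Against the 4.46% background, the gene lists gave small counts: 2 of 20 pluripotency genes, 6 of 146 lineage transcription factors, 6 of 59 genes of the Wnt, Fgf, Bmp, Notch and hedgehog families, 13 of 386 Zfp zinc-finger genes, 3 of 77 ribosomal protein genes, 4 of 106 genes of oxidative phosphorylation, 2 of 50 proteasome genes, 5 of 42 collagen genes and 3 of 37 kinesin genes. Solute carriers had 35 of 376 (9.31%). No member was nearest to any of 12 genes of CTCF, cohesin and its regulators or of 49 keratin genes. Olfactory and vomeronasal receptor genes had 5 of 1454 (0.344%), and only 12.0% of them were nearest to any conservative peak. The lists were chosen with results of these data known, and gene length and spacing, which set how often a gene is nearest to a peak, were not matched.

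Both pluripotency genes had members at a distance. Nanog, a homeobox factor of the naive state, had a member 5554 bp and another 37903 bp away, with relative signals of 3.08 and 3.55 in replicate 1 and 2.52 and 3.20 in replicate 2. Nr5a2, a nuclear receptor that can replace Oct4 in reprogramming, had a member at 83623 bp with 2.94 and 3.03. Developmental regulators included Hoxa9, a homeobox gene of body-axis patterning, with a member 1263 bp away at relative signals of 2.97 and 2.83. Sox8, an HMG-box factor, held a member inside the gene with 2.91 and 2.97. Fgf12, a fibroblast growth factor homologue that stays inside the cell, contained the member of rank 28 (4.55 and 4.46). Wnt8b, a secreted ligand, had a member 19097 bp away (3.63 and 4.19). Wnt1, a ligand of midbrain patterning, had a member 3875 bp away with 2.91 and 2.78. All of these were within 1.5-fold between the replicates.

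Over distances of several kb, members lay nearer to other CTCF peaks than the set as a whole, while very close neighbours were fewer. Both were also true of the ranks just below the members. The nearest other conservative peak was a median of 6902 bp away (6287 to 7493 bp), against 9267 bp over all peaks (9109 to 9426 bp). It was under 10 kb at 63.4% of members (60.3 to 66.4%) against 52.0%. Under 500 bp it was at 1.0% of members (0.481 to 1.83%) against 4.10% of all peaks, and under 1000 bp at 6.1% (4.70 to 7.77%) against 9.30%. It was over 100 kb at 1.1% (exact interval up to 2.0%) against 4.39%. These shares were not particular to members. Under 500 bp the share was 0.7% at both ranks 1001 to 2000 and ranks 2001 to 5000. Under 1000 bp it was 6.9% and 6.3% there, and over 100 kb 1.3% and 1.4%. At ranks 30001 to 42335 the 3 shares were 9.52%, 14.1% and 5.89%. Peaks ranked 1001 to 2000 and 2001 to 5000 had medians of 7325 and 7210 bp, so the short spacing was shared by the stronger part of the set, as the plot of spacing and placement by rank shows. Members had a median of 8 other conservative peaks within 100 kb, against 6. The nearest peak to a member had a median signal of 89.65, against 78.6 for the nearest peak over the whole set. It was among the 5000 strongest at 17.7% of members (15.4 to 20.2%), against 11.9% of all peaks. At ranks 1001 to 2000 these values were 84.59 and 16.2%. Most isolated were a member inside Zfp993, a zinc-finger gene, 256950 bp from the next peak, another 15246 bp from Gm47655, with 201143 bp, and a member nearest to Rgs17, a regulator of G protein signalling, with 169829 bp.

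**Figure D2:**
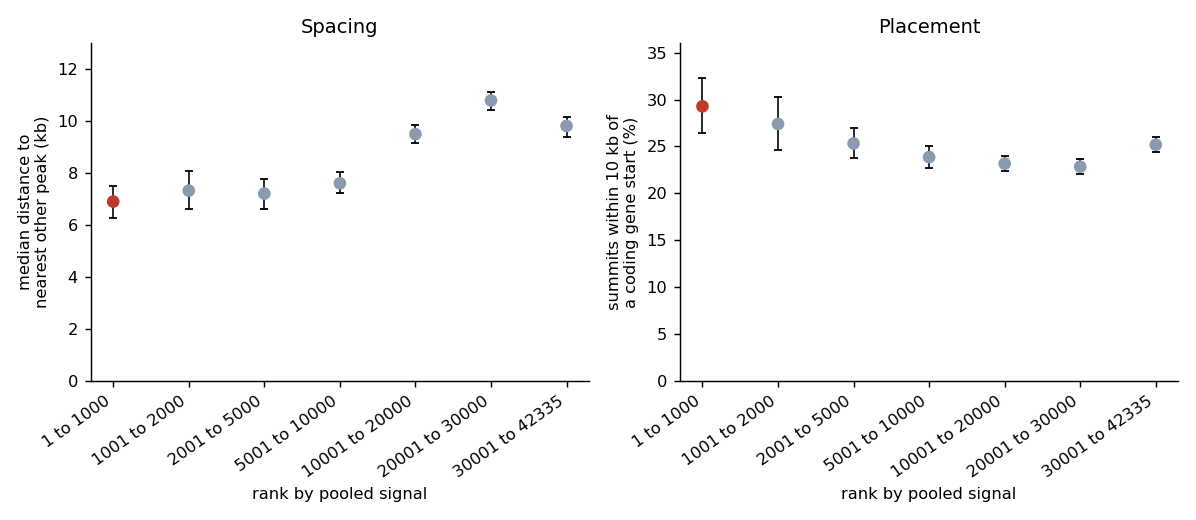
Median distance from a summit to the nearest other conservative peak in kb (left) and share of summits within 10 kb of a coding gene start in percent (right), by rank of pooled signal. Points are medians or shares with 95% intervals (order statistics and Clopper-Pearson), and the red points, ranks 1 to 1000, are 6902 bp and 29.3%.

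Between members themselves the median distance to the nearest was 334904 bp (282780 to 398782 bp), and 253 had no other within 1 Mb. Measured among themselves, ranks 1001 to 2000 and ranks 2001 to 3000 had medians of 397273 and 370157 bp, inside that interval. Within 50 kb of another lay 165 members (16.5%). The same count was 129 at ranks 1001 to 2000, 144 at ranks 2001 to 3000 and 124 at ranks 5001 to 6000. Further down it was 75 at ranks 10001 to 11000, 80 at ranks 20001 to 21000 and 75 at ranks 40001 to 41000. Closest were a pair at Ccdc188, 1101 bp apart with pooled signals of 338 and 227 and no peak between them. At Nans, the site of rank 6 had a member of rank 555 at 1461 bp. Pairs followed at Ifi27l2b, an interferon-induced gene (1616 bp), at Cpne5, a copine (1956 bp), and at Hjurp, the chaperone of centromeric histone CENP-A (2295 bp). Linked by gaps under 50 kb, members formed 63 runs of 2, 8 runs of 3 and 3 longer runs.

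The longest run lay inside Dnah8, which encodes a dynein heavy chain of the sperm tail. It held 7 members in 111801 bp of chromosome 17, and 1 more lay farther along the gene. Their signals in replicate 1 were 196, 180, 155, 177, 150, 117, 120 and 136, in order of pooled rank from 20 to 903. In replicate 2 they were 173, 165, 179, 129, 128, 115, 110 and 91.8. All 8 were within 1.5-fold between the replicates. The gene, 249 kb long, held 40 conservative peaks in all, 16.1 per 100 kb, where the median over 2313 coding genes longer than 100 kb was 1.53. In that order it came first by density and by members, and the next highest count of members in such a gene was 4. The plot of peaks along Dnah8 shows members and weaker peaks interleaved in both replicates.

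**Figure D3:**
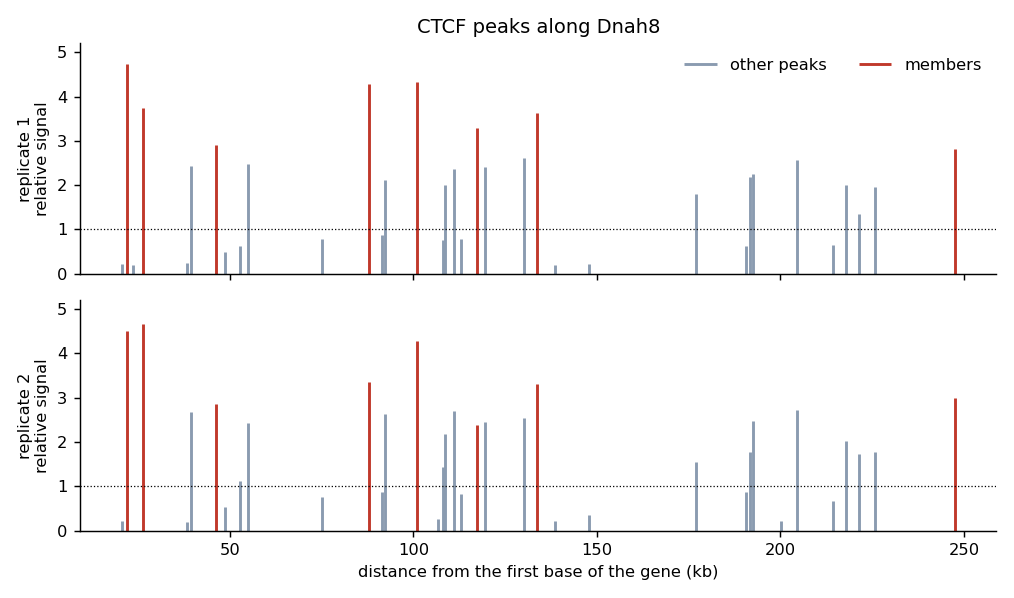
Relative signal (deposited signal in units of the median of matched peaks) of conservative peaks along Dnah8, by distance from the first base of the gene in kb, in replicate 1 (top) and replicate 2 (bottom). Red lines are the 8 members, grey lines other peaks with a summit matched in that replicate, and the dotted line is the median over all matched peaks; members reach 4.74 in replicate 1 and 4.65 in replicate 2.

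In the authors' separate mm9 lists, broad peaks with a fold enrichment, the Dnah8 sites did not stand out as much. Inside the gene, which the mm9 annotation calls Dnahc8, the best peak ranked 6119 in the pooled mm9 list, 2187 in replicate 1's and 2095 in replicate 2's, and there were 20, 21 and 22 peaks. Btbd9, in the same megabase, had a member of rank 473 on mm10, and its best mm9 peak ranked 15228 in the pooled list. By the best peak of a whole gene, such gaps were rare. For 317 genes with a member inside and a length within 5% of that on mm9, the best pooled mm9 rank had a median of 554, was in the first 2000 for 298 and in the first 5000 for 312. That peak could lie anywhere in the gene, so a gap at a member's own position could be hidden. The ranks of Btbd9 in the replicates' own mm9 lists were 12114 and 9048. Besides Dnah8 and Btbd9, the pooled list had 3 other exceptions, whose ranks differed between the replicates' own lists. Arhgef19 ranked 27152 in the pooled list and 28423 in replicate 1's, but 1013 in replicate 2's. Psors1c2 had no peak in the pooled list or replicate 2's, but ranked 1122 in replicate 1's. Arhgap25 ranked 5740 in the pooled list, 5021 in replicate 1's and 3701 in replicate 2's. The cause was not tested.

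A run upstream of Hjurp had no mm9 counterpart. Its 4 members, of ranks 76, 101, 423 and 619, lay in 12621 bp of chromosome 1, with no other conservative peak in between, and the member nearest the gene is the Hjurp sequence printed above. That member had signals of 118 and 126. Within 15 kb of Hjurp on mm9 each of the 3 lists had 0 peaks. The 300-base window with the Hjurp summit matched mm9 exactly once, and the nearest mm9 peak was 22664 bp away in the pooled list, 23184 bp in replicate 1's and 23183 bp in replicate 2's. The other 19 windows also matched mm9 once each, and all 19 lay in a peak of all 3 mm9 lists. Their pooled fold enrichment ran from 23.2 to 33.6, with a median of 26.4, against 12.0 over the list, and their ranks from 35 to 1913. What sets the Hjurp sites apart was not tested.

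Of other genes with several members, 2900026A02Rik held 4 inside the gene, with 12 conservative peaks in 135.0 kb, and its best mm9 peak ranked 185. The mm9 model of this gene is shorter, from 113515343 to 113592371, and held 6 pooled mm9 peaks, so the spans compared are not alike. Alox5ap, the activating protein of leukotriene synthesis, had 3, of which 2 were inside. The third long run, 4 members in 71579 bp, lay in the gamma protocadherin cluster on chromosome 18, a family of neuronal adhesion genes with alternative promoters. Nearest genes there were Pcdhga3, Pcdhga7, Pcdhga8 and Pcdhga10, and the ranks were 242, 407, 513 and 554. Clustered protocadherin genes as a list had 4 of 57 nearest to a member (7.02%).

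Across chromosomes, members numbered from 33 on chromosome 13 to 88 on chromosome 5. As a share of each chromosome's conservative peaks they made up 2.36% on the autosomes together, from 1.70% on chromosome 6 (1.22 to 2.30%) and 1.72% on chromosome 1 (1.27 to 2.27%) to 3.24% on chromosome 19 (2.35 to 4.36%). Those 2 low chromosomes were the only chromosomes of 19 whose interval excluded that share. Per megabase, chromosome 19 had the most members, 0.722, and chromosome 3 the fewest, 0.236. In the plot of shares by chromosome, the interval of chromosome 19 lies above those of chromosomes 1 and 6 without overlap, and most other intervals overlap each other.

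**Figure D4:**
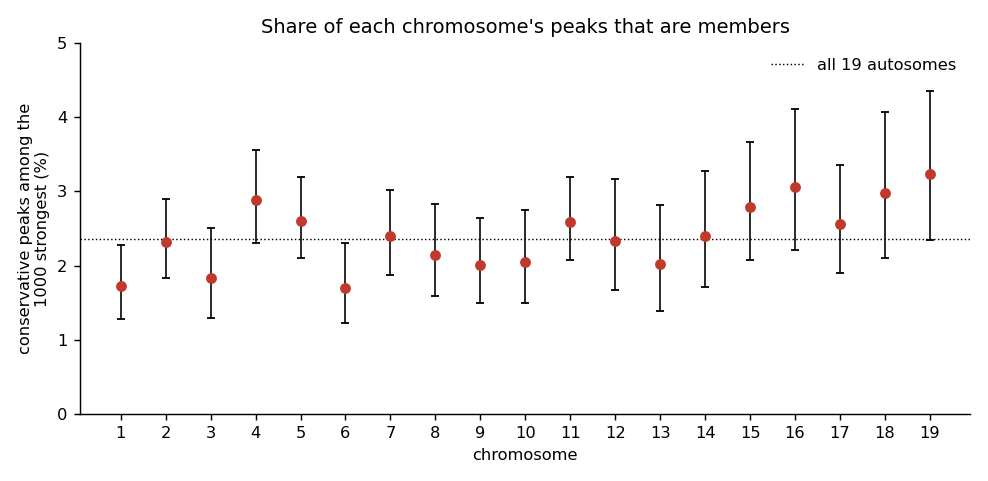
Share of each autosome's conservative peaks that are among the 1000 strongest, in percent, with exact 95% intervals as bars. The dotted line is the share over all 19 autosomes, 2.36%; chromosomes 1 and 6 lie below it with their whole interval.

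The letter patterns were also counted in the authors' mm9 lists, for which the genome sequence was at hand. These are other calls on another build, the 1000 strongest there are those of highest fold enrichment on the autosomes, and no positions were carried over. In 300 bp about the midpoint, the core AGNNGGC was in 78.9% of the 1000 strongest (76.2 to 81.4%) and in 81.0% of the others. Windows 5000 bp from those peaks held it in 52.9% (49.8 to 56.0%) and 44.9% (44.4 to 45.4%), so the background of the strongest was the higher. The core with CAGT starting 20 bases upstream was in 15.3% of the 1000 strongest (13.1 to 17.7%) and 9.33% of the others (9.04 to 9.63%), and in 0.70% (0.282 to 1.44%) and 0.472% (0.405 to 0.546%) of the windows 5000 bp from them. It fell with fold enrichment to 4.91% (4.46 to 5.39%) in peaks ranked past 30000. In replicate 1's own list the 1000 strongest had 18%, and in replicate 2's 14%, or 16.0 ± 2.83% (SD, n = 2), against 9.79 ± 0.0297% for the other peaks. Both replicates had the higher share in their strongest peaks, and with 2 libraries this difference was not tested.

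The spacing between the patterns was tight. Of all AGNNGGC matches in the 1000 strongest mm9 peaks, 11.9% had CAGT exactly 20 bases upstream and 3.27% had it at 21. Among the other peaks these shares were 7.75% and 1.52%. At every other distance plotted, from 5 to 40 bases, the share was at most 1.67% in either set. This is the arrangement that Pcp4 and Gm32026 show in the sequences printed above. Peaks just below the strongest had like shares, 15.7% at ranks 1001 to 2000 and 14.4% at ranks 2001 to 5000, so the pattern was not confined to the top 1000.

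**Figure D5:**
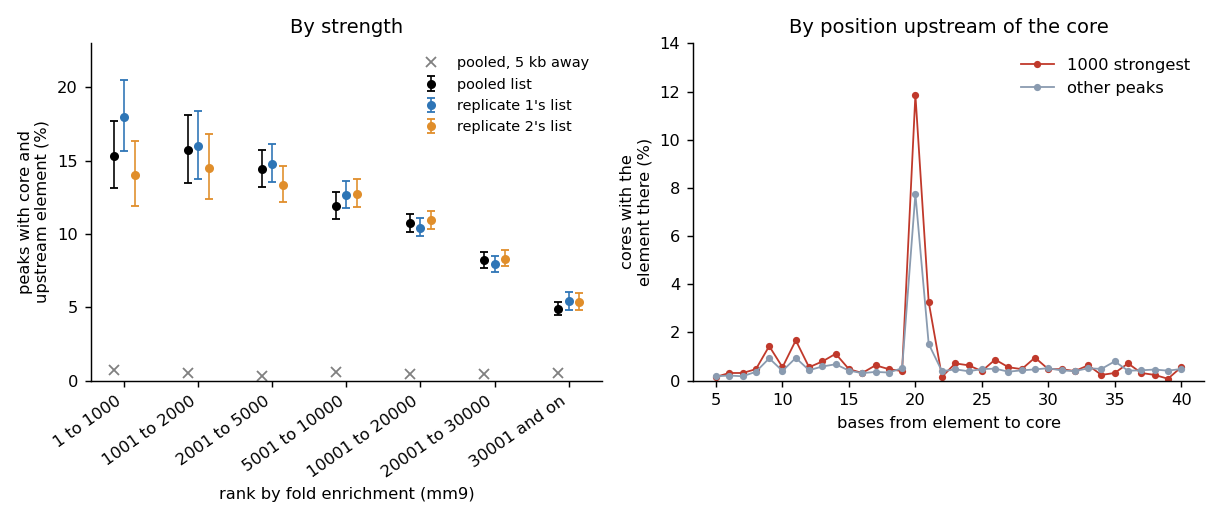
Left, share of mm9 peaks with the core and the upstream element at 20 bases, in percent with exact 95% intervals, by rank of fold enrichment in the pooled list and in each replicate's list, with windows 5 kb away as crosses. Right, share of cores with the element at each distance upstream in the pooled list, which peaks at 20 bases with 11.9% in the 1000 strongest and 7.75% in other peaks.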

How the data were processed

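ChIP-seq peak lists of 2 replicates were used. Per the deposited descriptions, the authors called peaks and background against a control on mm10 for each replicate and for both pooled, and derived the conservative and optimal IDR sets from these lists. The deposited values are a signal per peak, a −log10 q value and a score, and in the mm9 broad-peak lists a fold enrichment, a ratio. Not given in the sources used here are the peak caller, the aligner and the IDR threshold.

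Peaks were ranked by signal, and each replicate's list was searched for the closest summit, at most 100 bp away. Genes came from a RefSeq table of GRCm38.p6, starts and sequences from RefSeq promoter windows, which hold none for chromosome 18. No mm10 genome was used, and windows were placed on mm9 (GENCODE vM1) by exact sequence match only. Python 3.11.15, numpy 2.4.6, pandas 2.3.3 and scipy 1.17.1 were used, with exact Clopper-Pearson intervals at 95% and order-statistic intervals for medians, which cover counting error only. Distances, matching and pattern searches were tested on simulated data.

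Named are the 25 strongest members, 3 either side of the threshold, the strongest at starts and in promoter windows, the 3 per direction differing most between replicates, the closest pairs, longest runs, most isolated sites, genes with 3 or more members and up to 4 per gene list, not all printed. The exceptions of the comparison with mm9 inside genes were named after their values were seen. Members, lists and patterns were chosen with earlier results of these data known.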

Additional observations from a re-analysis of the deposited data

How the results depend on the processing

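Matching within 50 or 200 bp, the optimal set, other baselines for the replicate ratio and the strongest in place of the nearest summit moved no count of members by 1.5 times and no share or median beyond its interval. The start share followed its definition, at 2.28% within 500 bp and 7.79% within 2500 bp of a start, and 6.13% with starts of all genes, while 58.5% of members were inside any gene. With 500 members the median distance to the nearest other member was 610460 bp and with 2000 it was 162220 bp, since fewer or more sites share the chromosomes. Choosing members on 1 replicate gave 284130 to 400050 bp for that distance and 6890 to 6993.5 bp to the nearest other conservative peak. It gave 3.43 to 3.91% at starts and 48.6 to 51.7% inside coding genes. In the replicate not used for ranking, 854 and 825 of these members were in the first 2000, though both replicates had made the conservative set. The mm9 share of 15.3% with the upstream element, whose alternatives were chosen after seeing the data, was 8.1% within 50 bp and 13.1% within 100 bp of the midpoint, 23.9% with GNNGNC as the core, and 14 to 18% in either replicate's list alone. The 2 replicates form a single group, so their numbers pair no samples across groups. The lists give no read counts, so what depth limits cannot be stated.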

Other observations

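On the X chromosome, which is left out of the 1000 sites, the conservative set held 1009 peaks, 2.33% of those on the autosomes and X. Ranked together with the autosomes, 2 of the 1000 strongest would be on X (0.20%), the stronger with a pooled signal of 347.8. The line is male, and the part of X copy number in this was not tested. The megabase with the most members, 9 with 66 conservative peaks, was that of Dnah8 and Btbd9 on chromosome 17. Megabases with 7 members each lay on chromosome 3 around Efna3, an ephrin ligand, and Pmvk, a kinase of the mevalonate pathway, on chromosome 5 around Alox5ap and Hmgb1, a chromatin protein, and on chromosome 10 around Gna11 and Tjp3.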
